A study of Homo sapiens with 6 samples.

Results

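The junction genes described here are those of gap junctions and tight junctions in breast cancer cells. They were chosen by symbol: the connexins GJA1 and GJB1, the scaffold TJP1, the membrane proteins OCLN, CLDN3, CLDN4 and CLDN7, and the adhesion molecule F11R. In the platform annotation 7 of these 8 genes had at least 1 probe set with that single symbol, which gave 9 probe sets of the 22215 fitted. No probe set was named F11R there, and that gene is not analysed here. At the level of genes, with the brightest probe set standing for each, these are 7 of 11963 genes.

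LCCTam is a tamoxifen-resistant variant of SUM44, grown with 500 nM 4-hydroxytamoxifen, the active metabolite of tamoxifen, and sampled at passages 8, 9 and 10. SUM44 is an estrogen and progesterone receptor positive line from an invasive lobular breast carcinoma, grown in the same medium with no mention of the drug, and sampled at passages 74, 75 and 76. Each passage was measured on 1 Affymetrix array, 3 arrays per line, and the values are log2 expression made with RMA. The line, the drug and the passage number cannot be told apart in this design, nor can an array batch, since none is given in the sources used here. LCCTam is 1 resistant derivative, and passages that may not be independent cultures make the p-values measures of the spread between these arrays.

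Gap junctions are channels that join the cytoplasm of neighbouring cells and pass ions and small metabolites. Each half-channel is a ring of connexins, and in the breast GJA1 is best known from myoepithelial cells and GJB1 from luminal cells. Tight junctions seal the space between epithelial cells: claudins and occludin span the membrane, JAM proteins add adhesion, and the ZO scaffolds, of which TJP1 is the founding member, tie them to actin. Luminal breast epithelium is rich in CLDN3, CLDN4 and CLDN7.

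GJA1 and TJP1 were lower in LCCTam, by very different amounts, while GJB1, OCLN and CLDN7 did not pass the test in either direction. CLDN3 and CLDN4 had lower means in LCCTam that did not pass either. Of the 9 probe sets 3 passed an adjusted p of 0.05 (limma, Benjamini-Hochberg over all probe sets), all 3 of them lower, where 5.16% of all probe sets passed as lower, 1.56% as higher and 6.73% in either direction. The selection rule of the study's design text, applied here with the limma p, took 2 of the 9, GJA1 and 1 CLDN3 probe set, both lower. It took 2.04% of all probe sets, 1.59% lower and 0.45% higher, by a change of 2-fold or more with p below 0.05 before adjustment, above an intensity floor. With array weights 7 of the 9 passed, where 30.7% of all probe sets did. In the main fit of genes GJA1 and TJP1 passed, 2 of the 7, both lower, where 5.83% of all genes passed as lower. For 5 of the 9 probe sets, which belong to GJA1, TJP1 and CLDN3 only, every LCCTam array read lower than every SUM44 array. For 0 of the 9 every LCCTam array read higher. Over all probe sets 28.7% separated the lines in this way, 15.7% lower and 13% higher in LCCTam. The median difference, LCCTam minus SUM44, was -0.69 over the 9 probe sets and 0.016 over all probe sets.

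**Figure D1:**
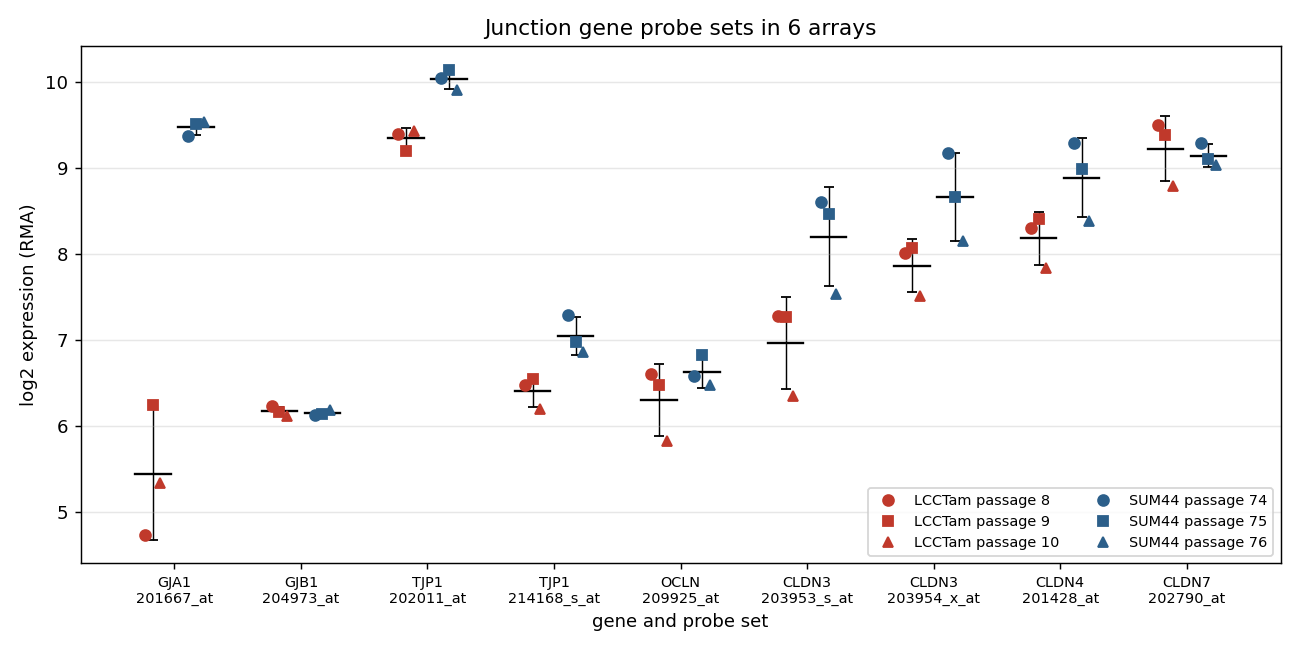
Log2 expression of the 9 probe sets in each array, with LCCTam in red left of SUM44 in blue; symbols mark the passages, the long bar is the mean and the error bar the SD of 3 arrays. GJA1 lies between 4.74 and 6.25 in LCCTam and between 9.38 and 9.54 in SUM44, while the GJB1 values of both lines lie together at 6.12 to 6.23.

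The start sites of the genes on which the results turn are shown here, as the 250 bases before the RefSeq start on GRCh38.p14. They set GJA1 beside GJB1, the connexin that did not pass, and TJP1 beside the neighbouring claudins CLDN3 and CLDN4. Capitals mark AP-1 motifs (TGANTCA, the same on both strands) and GC boxes (GGGCGG on either strand), the motifs that JUN and FOS proteins and the SP family are known to bind. No match of one motif overlapped the other. GJA1 is at chr6:121435396-121435645 on the plus strand and GJB1 at chrX:71214989-71215238 on the plus strand. CLDN3 is at chr7:73770271-73770520 on the minus strand and CLDN4 at chr7:73830746-73830995 on the plus strand. For TJP1 the table gave 4 start sites, and the most upstream one is shown, chr15:29969050-29969299 on the minus strand.
GJA1: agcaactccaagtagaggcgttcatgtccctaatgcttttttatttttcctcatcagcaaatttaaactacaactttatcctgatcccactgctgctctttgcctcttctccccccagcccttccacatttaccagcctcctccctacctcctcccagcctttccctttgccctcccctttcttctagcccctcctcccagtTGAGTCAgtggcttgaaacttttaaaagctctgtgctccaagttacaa
GJB1: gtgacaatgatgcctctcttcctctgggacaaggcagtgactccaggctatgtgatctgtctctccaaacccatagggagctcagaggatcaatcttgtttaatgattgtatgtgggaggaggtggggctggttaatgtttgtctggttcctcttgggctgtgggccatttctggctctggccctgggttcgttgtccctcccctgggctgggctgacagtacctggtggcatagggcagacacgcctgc
TJP1: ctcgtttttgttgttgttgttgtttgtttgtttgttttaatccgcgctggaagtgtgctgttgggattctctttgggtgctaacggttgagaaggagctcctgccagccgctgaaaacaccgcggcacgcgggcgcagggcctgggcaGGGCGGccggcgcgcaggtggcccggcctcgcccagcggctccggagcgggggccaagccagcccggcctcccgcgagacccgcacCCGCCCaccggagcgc
CLDN3: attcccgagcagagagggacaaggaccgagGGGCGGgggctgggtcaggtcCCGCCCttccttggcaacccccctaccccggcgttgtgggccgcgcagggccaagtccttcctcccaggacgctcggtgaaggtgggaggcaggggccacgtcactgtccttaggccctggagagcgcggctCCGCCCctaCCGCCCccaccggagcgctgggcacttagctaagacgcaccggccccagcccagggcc
CLDN4: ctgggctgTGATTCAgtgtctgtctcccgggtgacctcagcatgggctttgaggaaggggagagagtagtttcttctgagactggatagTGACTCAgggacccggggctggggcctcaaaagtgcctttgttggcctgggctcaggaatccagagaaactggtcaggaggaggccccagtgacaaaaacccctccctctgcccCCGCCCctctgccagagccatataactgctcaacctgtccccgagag
The GJA1 window held 1 AP-1 motif, whose first base lies at -48 from the start, and no GC box, at a GC content of 48.0%. The CLDN3 window held 4 GC boxes and no AP-1 motif, at 71.6% GC, and the CLDN4 window held 2 AP-1 motifs and 1 GC box, at 58.8% GC. The TJP1 window held 2 GC boxes, and the GJB1 window held neither motif. The other TJP1 windows, which are not shown, held 0, 1 and 3 GC boxes. OCLN and CLDN7, which did not pass and are not shown, each had windows with 1 and 0 GC boxes. None of these further windows held an AP-1 motif. Among 35116 start-site windows of the same length, 6.57% held an AP-1 motif and 42.6% a GC box, and the median GC content was 58.0%. These matches describe the letters of the windows, and binding was not measured. CLDN3 and CLDN4 are neighbours on chromosome 7, with 0 protein-coding genes between them in the RefSeq table.

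GJA1 encodes connexin-43, the most widely expressed gap junction protein. Its probe set 201667_at read 4.74, 6.25 and 5.35 log2 units in LCCTam passages 8, 9 and 10, against 9.38, 9.51 and 9.54 in SUM44 passages 74, 75 and 76. Every LCCTam value lay more than 3 log2 units below every SUM44 value, and the LCCTam arrays were spread over 1.51 units where the SUM44 arrays were spread over 0.158. The means were 5.44 ± 0.76 in LCCTam and 9.48 ± 0.09 in SUM44 (SD, n = 3 each). The difference was -4.03 (SE 0.34, 95% interval -4.84 to -3.22, limma adjusted p = 0.00198), which is 16.4-fold lower in LCCTam. The LCCTam mean stood at percentile 40.0 of all probe sets, and the SUM44 mean at percentile 90.9. No detection calls were used here, so it cannot be told whether GJA1 was still expressed in LCCTam. In bulk RNA, fewer cells with GJA1 and less GJA1 RNA per cell cannot be told apart. The difference was between -4.44 and -3.68 when any 1 array was left out, and passed each time.

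GJB1 encodes connexin-32, a connexin of secretory epithelia. Its probe set 204973_at read 6.23, 6.17 and 6.12 in LCCTam and 6.13, 6.14 and 6.19 in SUM44. The lines overlapped and their whole range was narrower than the spread of GJA1 within LCCTam. The difference was 0.023 (SE 0.075, 95% interval -0.15 to 0.20, adjusted p = 0.893), and the p that misses the threshold does not show that the lines are alike. Both means stood near the middle of all probe sets, at percentile 54.3 in LCCTam and 53.3 in SUM44, and whether they lie above background was not tested.

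None of the other connexins and pannexins passed the main test. Of 9 measured genes of this list 0 were higher, 1 was lower, and that gene was GJA1, where 7.92% of all genes passed, 5.83% as lower and 2.09% as higher. The 8 others had positive differences, between 0.02 for GJB1 and 0.39 for GJB5 (adjusted p = 0.0757), with a list median of 0.15 against 0.017 over all genes. At an unadjusted p under 0.05 there were 3 of the 9, GJA1 among them. With an intensity trend 1 gene of the list was higher and 1 lower, where 8.1% of all genes passed, and with array weights 2 were higher and 1 lower, where 32.1% of all genes passed. GJB5, an epidermal connexin, averaged 5.04 ± 0.17 in LCCTam and 4.65 ± 0.07 in SUM44 (SD, n = 3 each), both low on the scale of all genes.

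TJP1 encodes ZO-1, the scaffold that links claudins and occludin to actin and that also binds the tail of connexin-43. Its brighter probe set 202011_at read 9.39, 9.20 and 9.44 in LCCTam and 10.05, 10.14 and 9.91 in SUM44. The lines did not overlap, and the gap between them was wider than the spread within either. The means were 9.35 ± 0.12 in LCCTam and 10.03 ± 0.12 in SUM44 (SD, n = 3 each), a difference of -0.69 (SE 0.10, 95% interval -0.93 to -0.44, adjusted p = 0.0126), or 1.61-fold lower. The other TJP1 probe set, 214168_s_at, read 6.48, 6.55 and 6.20 in LCCTam and 7.29, 6.98 and 6.86 in SUM44. It was also lower on every LCCTam array, at -0.64 (SE 0.14, 95% interval -0.98 to -0.30, adjusted p = 0.048), or 1.55-fold lower. The adjusted p of 202011_at was 0.0549 without LCCTam passage 8 and 0.0725 without SUM44 passage 75. That of 214168_s_at was between 0.0598 and 0.151 when any 1 array was left out, so its call rests on all 6 arrays.

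**Figure D2:**
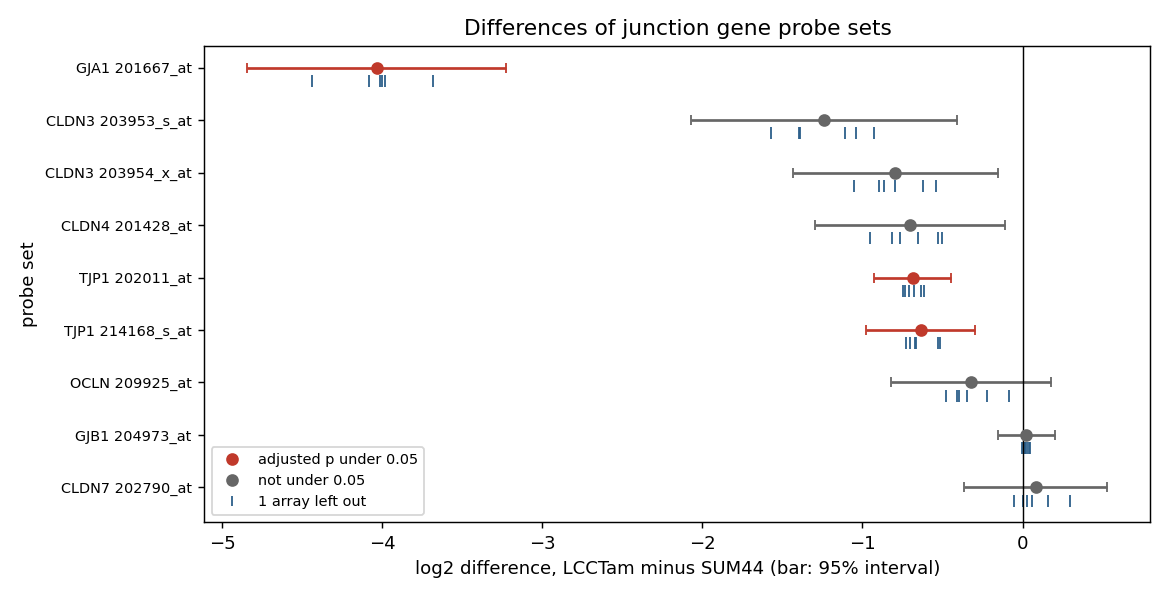
Log2 difference, LCCTam minus SUM44, of each probe set with its 95% interval from limma, in red where the adjusted p was under 0.05; the blue ticks are the differences with 1 array left out. GJA1 stands at -4.03, the 2 TJP1 probe sets at -0.69 and -0.64 have narrow intervals, and the CLDN3 and CLDN4 intervals are wider and end below 0 without passing the adjusted test.

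OCLN encodes occludin, a membrane protein of the tight junction strand. Its probe set 209925_at read 6.61, 6.48 and 5.83 in LCCTam and 6.58, 6.83 and 6.48 in SUM44. The lines overlapped, and LCCTam passage 10 was the lowest of the 6 arrays. The difference was -0.32 (SE 0.21, 95% interval -0.82 to 0.18, adjusted p = 0.428), and it was -0.083 without LCCTam passage 10. Of the 4 measured genes of the MARVEL and JAM group, which besides OCLN held JAM2, JAM3 and the virus receptor CXADR, 0 passed in limma, and 0 had an unadjusted p under 0.05. Their differences ran from -0.32 to 0.28, with a median of 0.08.

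CLDN3 encodes a sealing claudin and was read by a pair of probe sets. The probe set 203953_s_at read 7.28, 7.27 and 6.35 in LCCTam and 8.60, 8.46 and 7.54 in SUM44. The lines did not overlap, but 1 array in each line, LCCTam passage 10 and SUM44 passage 76, stood clearly below its companions. The difference was -1.24 (SE 0.35, 95% interval -2.07 to -0.41, unadjusted p = 0.00956, adjusted p = 0.0899), or 2.36-fold lower. The probe set 203954_x_at, whose suffix marks probes that may cross-hybridize, read 8.01, 8.08 and 7.52 in LCCTam and 9.18, 8.67 and 8.15 in SUM44. Its difference was smaller, at -0.80 (SE 0.27, 95% interval -1.44 to -0.16, adjusted p = 0.144), and again the lines did not overlap. Without SUM44 passage 76 the 203953_s_at difference was -1.57 (adjusted p = 0.0443). That was the only 1 of the 6 fits with 1 array left out in which it passed, and the limma adjusted p reached 0.289 in the others.

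CLDN4, a claudin that limits sodium passage, lies next to CLDN3 in the genome and had a like pattern over the arrays. Its probe set 201428_at read 8.31, 8.41 and 7.83 in LCCTam and 9.29, 8.99 and 8.39 in SUM44. The lines touched: SUM44 passage 76 lay just below LCCTam passage 9. The difference was -0.70 (SE 0.25, 95% interval -1.30 to -0.11, unadjusted p = 0.0268, adjusted p = 0.162), or 1.63-fold lower. Without SUM44 passage 76 it was -0.95 (adjusted p = 0.0593). In the fits of probe sets CLDN4 passed in 0 of the 6 with 1 array left out, where the limma adjusted p reached 0.399.

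CLDN7, a claudin found along the lateral membrane as well as in the tight junction, had no lower mean in LCCTam. Its probe set 202790_at read 9.50, 9.39 and 8.79 in LCCTam and 9.29, 9.10 and 9.04 in SUM44. LCCTam held both the highest and the lowest of the 6 values. The difference was 0.08 (SE 0.19, 95% interval -0.37 to 0.53, adjusted p = 0.841), and its sign turned when LCCTam passage 8 was left out, at -0.054.

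Because LCCTam passage 10 and SUM44 passage 76 were the lowest arrays of their lines for CLDN3, CLDN4 and CLDN7, these were also compared within each array, a comparison added after the values were seen. LCCTam passage 10 was the lowest of its line for 5 of the 15 measured claudins, these 3 with CLDN6 and CLDN15. By the brightest probe set, these 3 and CLDN15 were the brightest claudins in LCCTam, with means of 7.36 or more. The other claudins averaged 6.57 or less there. CLDN3 203953_s_at minus CLDN7 was -2.45 to -2.12 in LCCTam and -1.49 to -0.64 in SUM44, with means that differed by -1.32. For 203954_x_at minus CLDN7 the ranges were -1.49 to -1.28 in LCCTam and -0.89 to -0.12 in SUM44. For CLDN4 minus CLDN7 they were -1.19 to -0.96 in LCCTam and -0.65 to -0.01 in SUM44. The CLDN3 probe sets also separated the lines when set against each other, with 203953_s_at minus 203954_x_at at -1.17 to -0.73 in LCCTam and -0.61 to -0.20 in SUM44, and means that differed by -0.44. All 4 pairs were without overlap, each with an exact two-sided permutation p of 0.1, the smallest that 3 arrays against 3 allow, so none can reach 0.05. Since probe sets of the same gene separated the lines as fully, the separation does not by itself mark a difference between claudins. The SD of CLDN4 minus CLDN7 was 0.13 in LCCTam and 0.34 in SUM44, where CLDN4 alone had an SD of 0.31 in LCCTam and 0.46 in SUM44 (n = 3 each).

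**Figure D3:**
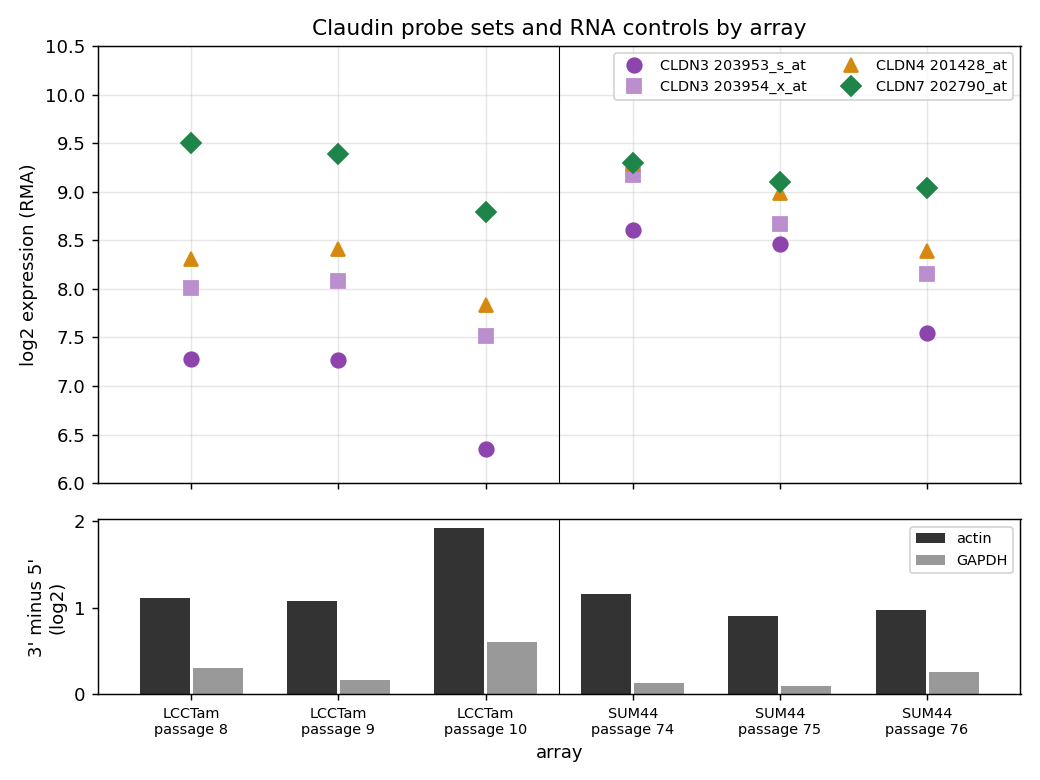
Upper panel: log2 expression of the 4 claudin probe sets in each array, LCCTam left of SUM44. Lower panel: the log2 difference between the 3' and 5' control probe sets of actin and GAPDH on the same arrays. LCCTam passage 10 is low for all 4 claudin probe sets and has the largest control differences, at 1.92 and 0.61, while SUM44 passage 76 is lowest in its line for all 4, with control differences of 0.98 and 0.26.

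The RNA controls were highest on LCCTam passage 10, the array with the lowest value of the 6 for all 4 claudin probe sets. The actin control had a 3' minus 5' difference of 1.92 in LCCTam passage 10, against 1.11 and 1.08 in LCCTam passages 8 and 9 and 0.90 to 1.15 in SUM44. The GAPDH control was 0.61 in LCCTam passage 10, against 0.31 and 0.17 in LCCTam passages 8 and 9, and 0.26 in SUM44 passage 76, against 0.13 and 0.09 in the other SUM44 passages. The 75th percentile of the probe sets was 7.50 in LCCTam passage 10 and 7.67 to 7.77 on the other 5 arrays. Without LCCTam passage 10 the log2 differences were -0.93 for CLDN3 203953_s_at, -0.62 for 203954_x_at, -0.53 for CLDN4 and 0.30 for CLDN7, with adjusted p between 0.119 and 0.256. GJA1 was then at -3.98 (adjusted p = 0.00527) and TJP1 202011_at at -0.73 (adjusted p = 0.0122). The part of RNA quality in the claudin values was not tested.

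Of 15 measured claudins 0 passed in limma, with 3 at an unadjusted p under 0.05, while 948 of all 11963 genes passed. The claudin differences ran from -0.89 to 0.28 with a median of 0.064. By the brightest probe set of each gene the lowest was CLDN8, a claudin of sodium-reabsorbing epithelia, which averaged 5.22 ± 0.21 in LCCTam and 6.11 ± 0.46 in SUM44 (SD, n = 3 each; adjusted p = 0.0631). CLDN8 passed without SUM44 passage 76 (-1.16, adjusted p = 0.0092), with array weights, with a filter on low values and with an intensity trend, the last 3 at adjusted p of 0.00256 to 0.0457. These were 1 of the 6 fits with 1 array left out, where the limma adjusted p reached 0.22, and 3 of the 7 other alternatives. Without SUM44 passage 76, 2 claudins passed in the gene fit, CLDN8 and 1 of the members, both lower, where 5.36% of all genes passed. With array weights 2 claudins were higher and 3 lower, where 32.1% of all genes passed. Of the 15 differences 4 were negative, namely those of CLDN8, CLDN3, CLDN4 and CLDN6.

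Among the scaffolds and adaptors of the tight junction, TJP1 was joined by CASK and MPDZ. Of 13 measured genes 0 were higher, 3 fell and 10 did not pass, where 5.83% of all genes passed as lower. The median difference was -0.21. CASK, a membrane-associated guanylate kinase, averaged 9.33 ± 0.14 in LCCTam and 10.12 ± 0.33 in SUM44 (SD, n = 3 each), a difference of -0.79 (limma adjusted p = 0.0376). MPDZ, a protein with many PDZ domains that binds claudin tails, averaged 5.95 ± 0.02 in LCCTam and 6.52 ± 0.08 in SUM44 (SD, n = 3 each), and differed by -0.56 (adjusted p = 0.0102). The other MPDZ probe set, at -0.50, did not pass (limma adjusted p = 0.0667). TJP3, the related ZO-3, had a difference of 0.14 (adjusted p = 0.47). Without LCCTam passage 10, 4 were lower, where 12.8% of all genes passed. Without SUM44 passage 75 there were 0, where 2.17% of all genes passed, and without LCCTam passage 8 there was 1, where 2.95% did. CASK did not pass without LCCTam passage 8, LCCTam passage 9 or SUM44 passage 75 (adjusted p of 0.114 to 0.123), and MPDZ did not without LCCTam passage 8 or SUM44 passage 75 (0.0543 and 0.0663). The CASK adjusted p was 0.0567 with quantile normalization and 0.0577 with centring on the 75th percentile.

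Polarity proteins, which place the junctions at the apical side of the cell, had 1 call. Of 10 measured genes 0 were higher, 1 fell and 9 did not pass, which is near the 7.92% of all genes that passed. The median was -0.14. DLG1, a scaffold of the basolateral membrane, averaged 8.33 ± 0.14 in LCCTam and 8.96 ± 0.07 in SUM44 (SD, n = 3 each). The lines did not overlap, and the difference was -0.62 (adjusted p = 0.0148). Of the other DLG1 probe sets, those at -1.01 (adjusted p = 0.00214) and -0.47 (adjusted p = 0.0366) also passed, and those at 0.053 and 0.041 did not. PRKCI, the atypical protein kinase C of the PAR complex, had a difference of -0.81 (adjusted p = 0.0567), and LLGL2, a basolateral polarity protein, one of 0.48 (adjusted p = 0.0717). Without LCCTam passage 10 the list had 2 higher and 2 lower, where 12.8% of all genes passed. Without LCCTam passage 8, LCCTam passage 9 or SUM44 passage 75 it had 0, where 2.95%, 3.35% and 2.17% of all genes passed. DLG1 lost its call under quantile normalization (adjusted p = 0.0557) and 75th percentile centring (adjusted p = 0.0623). DLG1 kept its lower direction under them, at -0.53 and -0.51. Under each of these scalings 1 gene of the list, other than DLG1, was higher and 0 were lower, where 9.17% and 8.71% of all genes passed.

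Partners of connexin-43, among them its kinases and the ubiquitin ligases of its turnover, had 0 calls among 17 measured genes in limma, with 4 at an unadjusted p under 0.05. With array weights 7 passed, where 32.1% of all genes did. The median difference was -0.03. The largest was NEDD4, a ubiquitin ligase that binds connexin-43, at 8.01 ± 0.05 in LCCTam and 8.73 ± 0.43 in SUM44 (SD, n = 3 each; difference -0.72, adjusted p = 0.0766).

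Transcription factors known to repress or activate epithelial junction genes moved in either direction. Among the 21 on the arrays, 2 were higher, 2 were lower and 17 were not called, where 2.09% of all genes passed as higher and 5.83% as lower. The median was -0.07. KLF4, an epithelial zinc finger factor, averaged 5.82 ± 0.17 in LCCTam and 7.40 ± 0.48 in SUM44 (SD, n = 3 each), and differed by -1.58 (adjusted p = 0.0103). The other KLF4 probe set passed with a smaller difference, at -0.58 (limma adjusted p = 0.029). SP3, which binds GC boxes, read 7.28, 7.28 and 7.47 in LCCTam and 8.42, 8.40 and 8.43 in SUM44, a difference of -1.08 (adjusted p = 0.00133). It was lower on every LCCTam array than on any SUM44 array, and it passed with each array left out in turn. The other listed member of the SP family, SP1, did not pass, and neither did JUN and FOS. Their differences were -0.07, -0.10 and -0.39 (limma adjusted p = 0.833, 0.736 and 0.229), and the lines overlapped for each. TWIST1, a repressor of epithelial genes in mesenchymal transition, was higher by 0.89 (adjusted p = 0.0245) and TFAP2A, a factor of the epithelial lineage, by 0.43 (adjusted p = 0.0242). The other TFAP2A probe sets, at 0.53 and 0.27, did not pass (limma adjusted p = 0.187 and 0.128). With 1 array left out TWIST1 was at 0.72 to 1.0 and TFAP2A at 0.39 to 0.45, but neither passed without LCCTam passage 8, LCCTam passage 9, SUM44 passage 75 or SUM44 passage 76. In each of these 4 fits the list had 0 higher and 2 lower, where 2.17% to 5.36% of all genes passed. SNAI1, which can repress claudins and occludin, read higher on every LCCTam array than on any SUM44 array, with a difference of 0.37 (95% interval 0.09 to 0.65, adjusted p = 0.111). The repressors SNAI2, ZEB1 and ZEB2 had differences of 0.05, 0.05 and 0.01 at mean levels of 4.6 or less in both lines, near the low end of the scale.

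**Figure D4:**
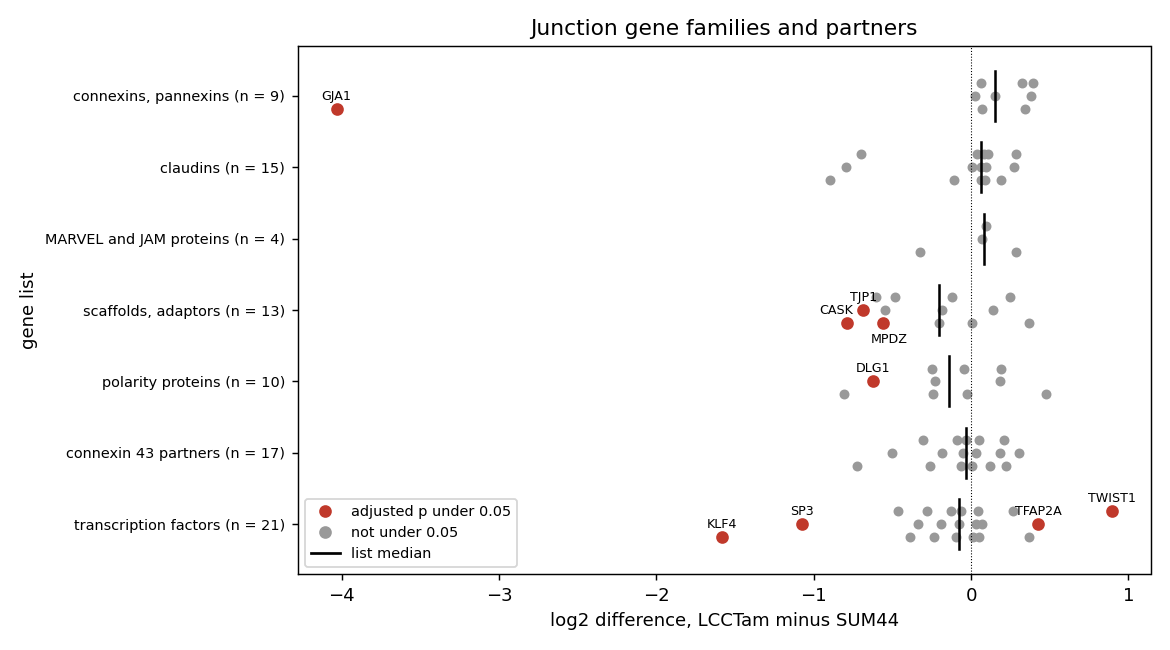
Log2 difference, LCCTam minus SUM44, of each measured gene in the 7 lists, 1 point per gene by its brightest probe set, in red where the adjusted p was under 0.05; the vertical bars are list medians. GJA1 stands alone at -4.03 in its family, the scaffolds TJP1, CASK and MPDZ lie between -0.79 and -0.56, and the claudins hold 0 called genes.

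The genes whose values over the 6 arrays were most like those of GJA1, by Pearson's r in the table of 11963 genes, were NCOA4, MFSD6 and CDKN1B, at r of 0.997, 0.997 and 0.996. Their own differences were much smaller than that of GJA1, at -0.38, -0.60 and -0.79. For TJP1 they were DGLUCY, MAP3K4 and TMEM123, each with r of 0.996 or 0.997, and with differences of -1.25, -0.62 and -1.25. The 6 arrays form 2 lines, so any gene that separates the lines well has a high r, and these values are descriptions.

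Markers of the labelled cell type had mean log2 levels of 7.05 or more in both lines. Of 12 luminal markers 0 were higher and 2, ESR1 (-1.65) and MUC1 (-1.38), were lower in LCCTam, where 5.83% of all genes passed as lower. Of the 12 differences 10 were negative, with a median of -0.27. Without LCCTam passage 10, 1 was lower and the median was -0.13, where 12.8% of all genes passed. Their summed linear level was 31057 to 41158 in LCCTam and 43797 to 50118 in SUM44. Of 10 basal and myoepithelial markers, the cells in which GJA1 is best known, 0 passed in limma with 0 at an unadjusted p under 0.05, and their summed level was 399 to 438 in LCCTam and 390.1 to 406 in SUM44. Of 12 fibroblast markers 0 were higher and 1, COL3A1, was lower. Its brightest probe set had a difference of -4.42, and its other probe sets were at -3.34, -1.96 and 0.02. The fibroblast sum was 1664 to 2108 in LCCTam and 1514 to 2313 in SUM44. In that sum SPARC, the brightest of these markers, differed by 0.67 and FN1 by -1.10, and neither passed. Of 8 endothelial and 8 leukocyte markers 0 passed, with 0 at an unadjusted p under 0.05. RMA values have no true 0, and no marker can be called absent from them.

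Over all features, 1494 probe sets passed, 347 higher and 1147 lower in LCCTam. With quantile normalization the split was 727 higher and 967 lower, and with each array centred on its 75th percentile it was 793 and 771. That centring moved the median difference of all probe sets to 0.13. With that centring GJA1 was at -3.92, the brighter TJP1 probe set at -0.57, GJB1 at 0.14 and CLDN7 at 0.20. Pearson's r between arrays of a line, across probe sets, was 0.985 to 0.996.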

How the data were processed

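RNA of 3 LCCTam and 3 SUM44 samples was hybridized to 1 array each, and samples were grouped by their titles. The deposited values are log2 expression that the authors made with RMA, which the submitters' processing notes and the series' design text name, the second as run in Bioconductor, with no version or chip definition given there. RMA makes array distributions alike, so a global shift cannot be seen. Of 22283 probe sets 68 controls were left out. A probe set took its gene name from GEO's platform annotation where that listed 1 symbol (19065 of those fitted), updated through Entrez identifiers, of which 19059 probe sets had one in the RefSeq table of GRCh38.p14. Differences are LCCTam minus SUM44, from lmFit and eBayes of limma 3.58.1 (R 4.3.3) on all 22215 probe sets and, for gene lists, on the probe set with the highest mean for each of 11963 genes. Benjamini-Hochberg adjustment covered each whole table, 0.05 was the threshold, and the fit was tested on simulated data. The number of arrays limits the precision, and no array batch is given in the sources used here, so batch and line cannot be told apart.

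Members and gene lists were chosen with earlier results of these data known. Beyond the members, the rule named up to 4 passing genes with the largest differences per list, or the largest difference where none passed, and for GJA1 and each other passing member the 3 genes with the highest Pearson r. GJB5, TJP3, PRKCI, LLGL2, SNAI1, SNAI2, ZEB1, ZEB2, CLDN6, CLDN15, JAM2, JAM3, CXADR, ESR1, MUC1 and COL3A1 were named after their values were seen. The same holds for SP1, JUN, FOS, SPARC and FN1. Alternatives left out each array, changed the scaling, the weights, the variance prior, the filter on low values (a mean of at least 5 in a line), or the probe sets used.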

Additional observations from a re-analysis of the deposited data

How the results depend on the processing

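GJA1 passed in all 12 alternatives, between -4.58 and -3.68. With 1 array left out, TJP1 202011_at was -0.75 to -0.62, TJP1 214168_s_at -0.73 to -0.51, OCLN -0.48 to -0.083, CLDN3 203953_s_at -1.57 to -0.93, 203954_x_at -1.05 to -0.54, CLDN4 -0.95 to -0.50, CLDN7 -0.054 to 0.30 and GJB1 -0.0064 to 0.048. Both signs of CLDN7 and GJB1 therefore occur. TJP1 202011_at passed in 4 of these 6 fits and TJP1 214168_s_at in 0, and both passed in the 6 other alternatives. With array weights CLDN3 was called at -1.03 and -0.64, CLDN4 at -0.60 and CLDN7 at 0.34. In that fit 7 member probe sets and 5 member genes passed, of 6828 probe sets (30.7%) and 3844 genes in all, and LCCTam passage 8 had a weight of 5.70 against 0.20 to 2.25 for the others. With 1 array left out 1 to 3 member probe sets, 1 to 3 member genes, 357 to 2398 probe sets and 259 to 1527 genes passed. The lowest counts of all probe sets and genes came without SUM44 passage 75 and the highest without LCCTam passage 10. Without LCCTam passage 8 there were 471 probe sets and 353 genes, without LCCTam passage 9 673 and 401, and without SUM44 passage 76 949 and 641. Without the suffixes _x_at and _s_at 598 genes passed, and CLDN3 had no probe set. The selection rule in the design text asks for a change of 2-fold or more, p below 0.05 before adjustment and both line means no lower than log2 of 10. Applied here with the limma p, it took 454 probe sets (2.04%), among them GJA1 and CLDN3 203953_s_at. The 15 other genes named by the rule had the direction of their main value in all 189 values computed. CASK, KLF4, DGLUCY, MAP3K4, MFSD6 and NCOA4 have none without the suffixes _x_at and _s_at. No paired analysis was possible because the lines share no passage number. Without detection calls, differences of dim probe sets cannot be told from background.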
